A study of Mus musculus with 6 samples.

Results

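The 10 genes examined here encode the core enzymes and regulators of polyamine metabolism: Odc1, Amd1, Srm and Sms for synthesis, Azin1, Oaz1 and Oaz2 for the control of ornithine decarboxylase, and Sat1, Smox and Paox for breakdown. They were picked by symbol from the 52249 genes of the deposited table, each matched 1 row, and all 10 passed the filter on low counts that left 10687 genes for testing. The cells were mouse intestinal organoids, epithelial cultures grown from the gut. Both groups of 3 libraries had the genotype Apc-knockout, the loss of a tumour suppressor that limits WNT signalling, and the second group carried IGF2BP3 overexpression in addition. The first is called control and the second OE-labelled. Library names place the controls in one series and the OE-labelled libraries in another, so the group and the library series cannot be told apart in any comparison. The labels do not give the overexpression construct, the number of mice or clones, or whether libraries of a group came from separate cultures. The p-values therefore measure the spread between these libraries, which may be technical. Squared deviations between 2 libraries were divided by those of counting noise and averaged over genes. The mean was 1.2 to 1.37 in control pairs and 4.71 to 9.04 in OE-labelled pairs, while the edgeR test fits 1 spread per gene to both groups.

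Polyamines are small positively charged molecules that bind nucleic acids and that dividing cells need for growth and protein synthesis. Ornithine decarboxylase makes putrescine from ornithine. Spermidine synthase and spermine synthase then add aminopropyl groups, which come from S-adenosylmethionine after its decarboxylation. Antizymes bind ornithine decarboxylase and send it to the proteasome, and the antizyme inhibitor binds antizymes in its place. In the intestine, polyamines support the renewal of the epithelium, and Odc1 is a classic target of the transcription factor MYC, which the APC and WNT pathway regulates.

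Antizyme messages can be translated in full only when ribosomes skip 1 base, a step that polyamines promote, so a count of antizyme mRNA is not a measure of antizyme protein. The coding sequences around the skipped base are shown because Oaz1 and Oaz2 share this site while their counts differed in direction below. Capitals mark the last sense codon, the stop codon of the first frame and the base that follows, on the plus strand of GRCm38 at chr10:80828280-80828309 for Oaz1 and chr9:65686257-65686286 for Oaz2, each read 5′ to 3′ from GENCODE M21 transcripts.
Oaz1: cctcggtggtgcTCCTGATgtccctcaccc
Oaz2: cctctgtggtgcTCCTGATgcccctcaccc
The 7 capital bases were the same in both, and the annotated coding sequence leaves out 1 base in each, at position 80828295 of chromosome 10 and position 65686272 of chromosome 9.

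The libraries held 2180087 to 2228062 counts in the control group and 2310216 to 2519886 in the OE-labelled group, so that 3 counts, taken as the detection floor, corresponded to 1.18 to 1.41 CPM, the usual unit of counts scaled to library size. Libraries were made with a 3′ kit that counts 1 stretch near the end of each transcript, so CPM does not scale with transcript length and can be set side by side between genes. Mitochondrial genes took 11.6% to 11.96% of the counts in control and 6.77% to 7.19% in OE-labelled libraries. The gene CT010467.1 took 4.25% to 4.69% in control and 1.27% to 1.99% in OE-labelled libraries. Srm and Smox were called higher also when mitochondrial genes and CT010467.1 were left out together. Of 10 epithelial markers, 9 had at least 10 counts in every library and Cdx1 had 0 throughout. Fibroblast markers summed to at most 3 counts and endothelial markers to at most 2 in a library, with 6 of 8 and 2 of 5 of them at 0. The immune list summed to 41.3 to 51.6 CPM in control and 60.9 to 75.8 CPM in OE-labelled libraries, nearly all of it from Csf1r and Cd68, while Cd3e, Cd79a and Adgre1 had 0 counts. The secretory list, with 5 of 8 genes counted and Lyz1, Defa24 and Chga at 0, summed to 650 to 684 CPM in control and 1340 to 1540 CPM in OE-labelled libraries, and its part in the results was not tested. The enterocyte list had 2 of 7 genes counted, with Alpi, Apoa1, Fabp1, Sis and Anpep at 0. It summed to 5.07 to 7.37 CPM in control and 0.39 to 1.69 CPM in OE-labelled libraries. These sums were 1 to 16 counts per library and reached under the floor, and 0 of the genes had 10 counts in every library. Crypt stem markers summed to 36.9 to 39.2 CPM and 40.5 to 64.7 CPM. Apc, the gene knocked out in both groups, had 75.6 to 83.9 CPM in control and 59.4 to 64.0 CPM in OE-labelled libraries. It was called lower (log2 fold change -0.37, SE 0.12, edgeR adjusted p = 0.0323). A 3′ count does not check the genotype where the altered part of the gene lies outside the counted stretch. Igf2bp3 itself had 1, 0 and 0 counts in the control and 1, 0 and 0 in the OE-labelled libraries, under the floor, so that the counts gave no check of the label. Myc was counted at 21.2, 31.4 and 24.9 CPM in control and 3.24, 13.76 and 19.03 CPM in OE-labelled libraries (log2 fold change -1.11, SE 0.39, edgeR adjusted p = 0.0472).

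Srm and Smox were higher in the OE-labelled libraries, and 0 of the 10 genes were called lower by edgeR, by DESeq2 or by limma-voom (1 had an unadjusted p below 0.05 in edgeR, Oaz2). Srm, which encodes spermidine synthase, rose 1.81-fold, and Smox, which encodes spermine oxidase, rose 1.40-fold (edgeR adjusted p = 0.0038 and 0.0253). The other 8 genes did not pass the threshold of 0.05 on the adjusted p. The share of genes called higher was 16.5% over all genes tested, and 29.2% were called in either direction, so 2 called genes of 10 lie near the background of this comparison. The median log2 fold change of the 10 genes was 0.203, beside 0.041 over all genes. Of the 10 values 6 were positive and 4 negative, and over all genes tested 53% were positive. At an unadjusted p below 0.05 there were 4 of the 10 genes, namely Srm, Smox, Amd1 and Oaz2. Over all genes tested there were 4407 of 10687, so this count too lies near the background. All OE-labelled values lay above all control values for 3 of the 10 genes, Srm, Smox and Oaz1, and for 0 of the 10 they lay below. Over all genes tested, 25.3% were separated upward and 20.5% downward, 45.7% in either direction.

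**Figure D1:**
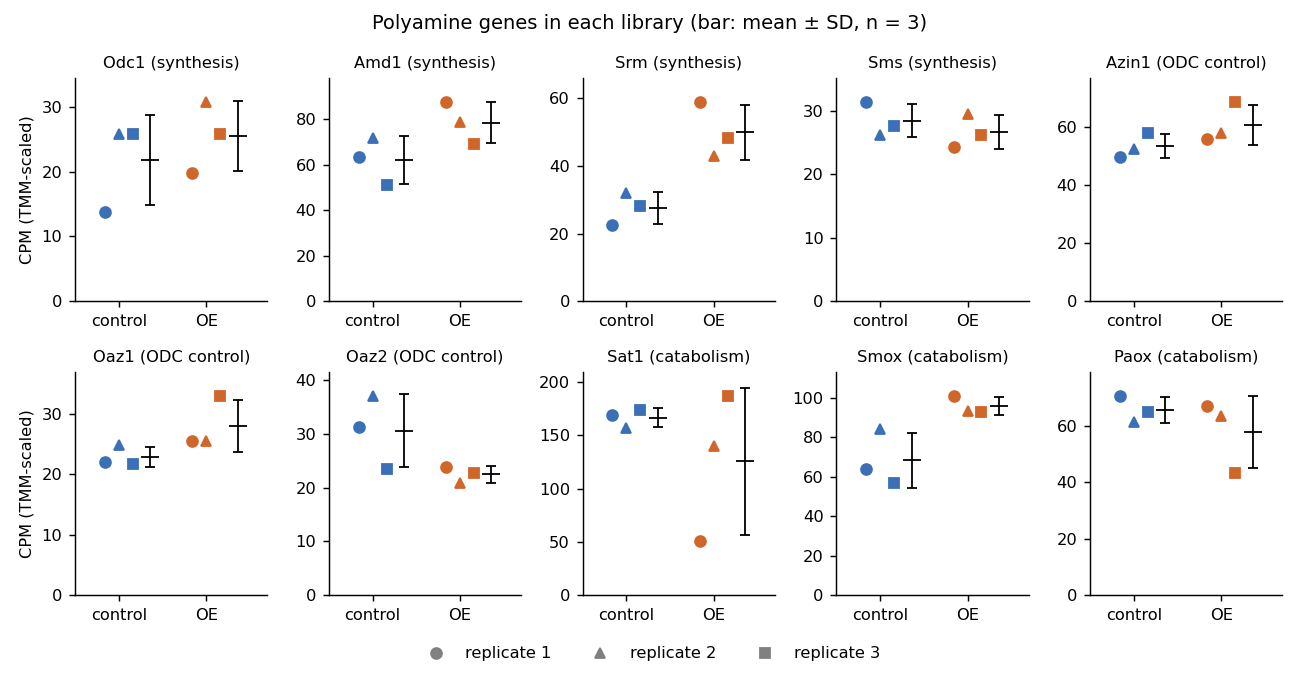
TMM-scaled CPM (vertical axes, from 0) of each polyamine gene in the 3 control (blue) and 3 OE-labelled (orange) libraries, with the mean ± SD beside each group. All OE-labelled points lie above all control points for Srm, Smox and Oaz1, and for Sat1 OE-labelled replicate 1 lies far below the other libraries, at 51.1 CPM.

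Synthesis begins with ornithine decarboxylase. Odc1 (ENSMUSG00000011179, GRCm38 chromosome 12, 17544794 to 17551505, plus strand) was counted at 13.8, 25.8 and 25.8 CPM in control and 19.9, 30.7 and 25.8 CPM in OE-labelled libraries, in replicate order. Control replicate 1 was the lowest of the 6, and the groups overlapped. The log2 fold change was 0.22 (95% interval -0.31 to 0.76, edgeR adjusted p = 0.529), an interval that holds changes from a fall to 0.804 of the control level to a rise of 1.69-fold. Without control replicate 1 it was -0.02 (edgeR adjusted p = 0.956), so the sign rested on that library. The end of Odc1 shares stretches of at least 100 bases at 95% identity or more with 6 other annotated genes, to which 13 counts were assigned in all, 4% of the 329 counts of Odc1. A read that fits both could be lost or assigned to either, and the Odc1 level is therefore uncertain. A small nucleolar RNA gene also lies within it on the same strand.

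Amd1 encodes S-adenosylmethionine decarboxylase, which makes the aminopropyl donor. It lies on the minus strand of chromosome 10 (ENSMUSG00000075232, 40287458 to 40302186). Its level was 63.6, 71.8 and 51.1 CPM in control and 87.5, 79.0 and 69.3 CPM in OE-labelled libraries. The lowest OE-labelled library lay just under the highest control library. The log2 fold change of 0.34 (SE 0.15, 95% interval 0.02 to 0.66) did not pass (edgeR adjusted p = 0.104). It passed without OE-labelled replicate 3 (0.43, edgeR adjusted p = 0.0437) and when a trend of the counts with GC content was removed (0.57, edgeR adjusted p = 0.0245). Amd2, a near-identical gene, had 7 counts over the 6 libraries, 0.71% of those of Amd1. A read that fits both could be lost before counting, so the Amd1 level is uncertain.

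Of the aminopropyl transferases, 1 of 2 was called, beside 29.2% of all genes tested. Srm (ENSMUSG00000006442, chromosome 4, 148591503 to 148594993, plus strand) had 22.6, 31.9 and 28.1 CPM in control and 58.7, 42.9 and 48.2 CPM in OE-labelled libraries. Every OE-labelled library exceeded every control library, and the log2 fold change was 0.86 (SE 0.18, 95% interval 0.47 to 1.24). This gene overlaps no other annotated gene and its end has no near-identical copy in the annotation. The call held in all 18 alternative settings, with log2 fold changes from 0.60 to 0.98. Sms (ENSMUSG00000071708, X chromosome, 157443855 to 157492287, minus strand), which encodes spermine synthase, had 31.3, 26.3 and 27.6 CPM in control and 24.3, 29.5 and 26.2 CPM in OE-labelled libraries, and the groups overlapped. Its log2 fold change was -0.09 (95% interval -0.46 to 0.27, edgeR adjusted p = 0.721). Because both are measured in the same library, their ratio does not depend on the scaling between libraries, but it carries any trend with GC content, and with that trend removed the fitted changes were 0.60 for Srm and 0.09 for Sms. Srm counts were 0.721, 1.21 and 1.02 times those of Sms in control and 2.42, 1.45 and 1.84 times in OE-labelled libraries. The ratio was higher in each of the 3 OE-labelled libraries than in any control, a log2 difference of 0.95 (exact permutation test, two-sided p = 0.1, the smallest that 3 against 3 can give; 0.25 adjusted over 10 ratios).

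**Figure D2:**
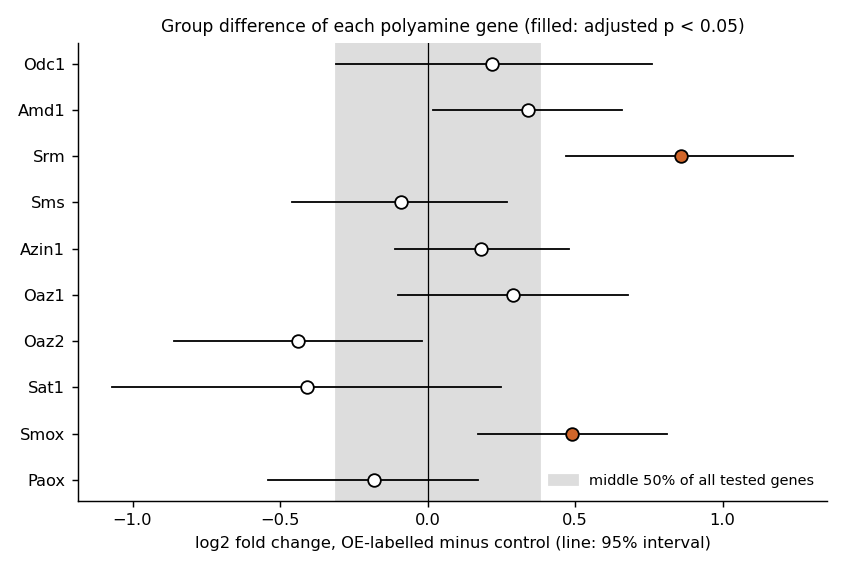
Log2 fold change of each polyamine gene between OE-labelled and control libraries (horizontal axis), with its 95% interval as a line, filled where the edgeR adjusted p was below 0.05. The grey band spans the middle 50% of all tested genes, from -0.31 to 0.38, and the values of Srm, Smox, Oaz2 and Sat1 lie outside it.

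Of the 3 regulators of ornithine decarboxylase, 0 were called by edgeR or DESeq2, and 1, Oaz2, had an unadjusted p below 0.05 in edgeR. Over all genes tested, edgeR called 29.2% and DESeq2 19.6%, and 4407 of 10687 had an unadjusted p below 0.05 in edgeR. Counts over 3 genes cannot be told from these shares. Azin1 (ENSMUSG00000037458, chromosome 15, 38487427 to 38519266, minus strand) encodes the antizyme inhibitor, a relative of ornithine decarboxylase without enzyme activity. It was the most abundant of the regulators, at 49.8, 52.5 and 58.1 CPM in control and 55.9, 57.8 and 68.5 CPM in OE-labelled libraries. The groups overlapped and the log2 fold change was 0.18 (95% interval -0.11 to 0.48, edgeR adjusted p = 0.336). Azin1 had the lowest GC content of the 10 genes, 39.3% of its longest transcript, and with the GC trend removed its change was 0.44 (edgeR adjusted p = 0.0274). An antisense gene overlaps it on the opposite strand.

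Oaz1 and Oaz2, whose frameshift sites are printed above, differed in sign. Oaz1 (ENSMUSG00000035242, chromosome 10, 80826656 to 80829290, plus strand) had 22.1, 24.9 and 21.7 CPM in control and 25.5, 25.6 and 33.0 CPM in OE-labelled libraries, with all 3 OE-labelled values above the controls by a narrow margin. Its log2 fold change was 0.29 (95% interval -0.10 to 0.68, edgeR adjusted p = 0.248), and it was 0.08 with the GC trend removed (edgeR adjusted p = 0.793) and 0.16 without OE-labelled replicate 3 (edgeR adjusted p = 0.529). Oaz2 (ENSMUSG00000040652, chromosome 9, 65668001 to 65690300, plus strand) had 31.3, 37.1 and 23.5 CPM in control and 23.9, 20.8 and 22.8 CPM in OE-labelled libraries. The OE-labelled values were close together and overlapped the control range at its lower end. The log2 fold change was -0.44 (95% interval -0.86 to -0.02, edgeR adjusted p = 0.105), and it was -0.60 with the GC trend removed (edgeR adjusted p = 0.0393). Oaz2 counts exceeded those of Oaz1 in every control library, at 1.42, 1.49 and 1.09 times, and in no OE-labelled library, at 0.937, 0.815 and 0.692 times. The log2 difference of this ratio was -0.71 (exact permutation test, two-sided p = 0.1, the smallest possible, and 0.25 adjusted over 10 ratios). Both have near-identical processed copies, 1 for Oaz1 with 2 counts in all and 2 for Oaz2 with 0 counts, and both levels are uncertain for that reason.

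The balance of Odc1 with its regulators did not separate the groups. Odc1 counts were 0.625 to 1.19 times those of Oaz1 in control and 0.778 to 1.20 times in OE-labelled libraries (exact permutation test, two-sided p = 1). Against Azin1 they were 0.278 to 0.491 times in control and 0.355 to 0.531 times in OE-labelled libraries (exact permutation test, two-sided p = 0.9). Odc1 had 30 to 78 counts per library, and 3 libraries against 3 cannot give a p under 0.1.

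Breakdown starts with acetylation. Sat1 (ENSMUSG00000025283, X chromosome, 155213132 to 155216449, minus strand) encodes spermidine/spermine N1-acetyltransferase, the enzyme that marks polyamines for oxidation or export. It was the most abundant of the 10 genes in every control library, at 169.1, 156.7 and 174.2 CPM. The OE-labelled libraries gave 51.1, 139.6 and 186.9 CPM, so that 1 lay far below the controls, 1 below and 1 above. The OE-labelled libraries had a coefficient of variation of 54.8%, against 5.39% among controls. The log2 fold change was -0.41 (95% interval -1.07 to 0.25, edgeR adjusted p = 0.337). It was -0.09 without OE-labelled replicate 1 (edgeR adjusted p = 0.609) and -0.80 without OE-labelled replicate 3 (edgeR adjusted p = 0.0395), and with no count filter it passed at -0.45 (edgeR adjusted p = 0.00915). Myc counts were lowest in OE-labelled replicate 1 too, and the part of that in the Sat1 value was not tested. Fibroblast and endothelial markers were at or near 0 in all 6 libraries. Csf1r and Cd68 of the immune list were highest in OE-labelled replicate 1, at 55.5 and 20.3 CPM. The part of other cell types in the Sat1 value was not tested. The end of Sat1 has 2 near-identical processed copies, which held 1 count in all, and its level is uncertain for that reason.

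Smox (ENSMUSG00000027333, chromosome 2, 131491496 to 131525922, plus strand) turns spermine back to spermidine and releases hydrogen peroxide. It had 64.1, 84.0 and 56.7 CPM in control and 100.9, 93.2 and 93.0 CPM in OE-labelled libraries. The OE-labelled values were tight and all above the controls, which were more spread. The log2 fold change was 0.49 (SE 0.15, 95% interval 0.17 to 0.81). The call was lost in 6 of 18 alternatives: with DESeq2's test (0.45, adjusted p = 0.0724), with the GC trend removed (0.30, edgeR adjusted p = 0.158), with that and the replicate block together (0.31, edgeR adjusted p = 0.127), and without control replicate 1 (0.44, edgeR adjusted p = 0.112), control replicate 3 (0.37, edgeR adjusted p = 0.138) or OE-labelled replicate 2 (0.48, edgeR adjusted p = 0.0729). Smox overlaps no annotated gene and has no near-identical copy at its end.

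Paox (ENSMUSG00000025464, chromosome 7, 140115799 to 140137224, plus strand) encodes the oxidase that acts on acetylated polyamines. It had 70.5, 61.5 and 65.0 CPM in control and 66.9, 63.3 and 43.1 CPM in OE-labelled libraries, and replicate 3 of the OE-labelled group alone lay outside the control range. Its log2 fold change was -0.18 (95% interval -0.54 to 0.17, edgeR adjusted p = 0.426), and it was -0.01 without OE-labelled replicate 3 and -0.35 without OE-labelled replicate 1. Paox overlaps Echs1 on the opposite strand. Its end shares near-identical stretches with 2 other annotated genes, which held 4 counts in all, so its level is uncertain. Smox counts were 0.908, 1.37 and 0.872 times those of Paox in control and 1.51, 1.47 and 2.16 times in OE-labelled libraries, a log2 difference of 0.72 with no overlap (exact permutation test, two-sided p = 0.1, and 0.25 adjusted over 10 ratios). Srm relative to Sat1 also did not overlap, at 0.134 to 0.204 in control and 0.258 to 1.15 in OE-labelled libraries, where the log2 difference of 1.46 was 0.78 without OE-labelled replicate 1 (exact permutation test of all 6, two-sided p = 0.1, and 0.25 adjusted over 10 ratios). In the other 6 of the 10 ratios the groups overlapped. Among single genes tested, 45.7% had groups that did not overlap, and no such share was computed for ratios. In Srm/Sms, Srm/Sat1 and Smox/Paox the numerator is a gene already called, so these ratios are not separate findings.

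**Figure D3:**
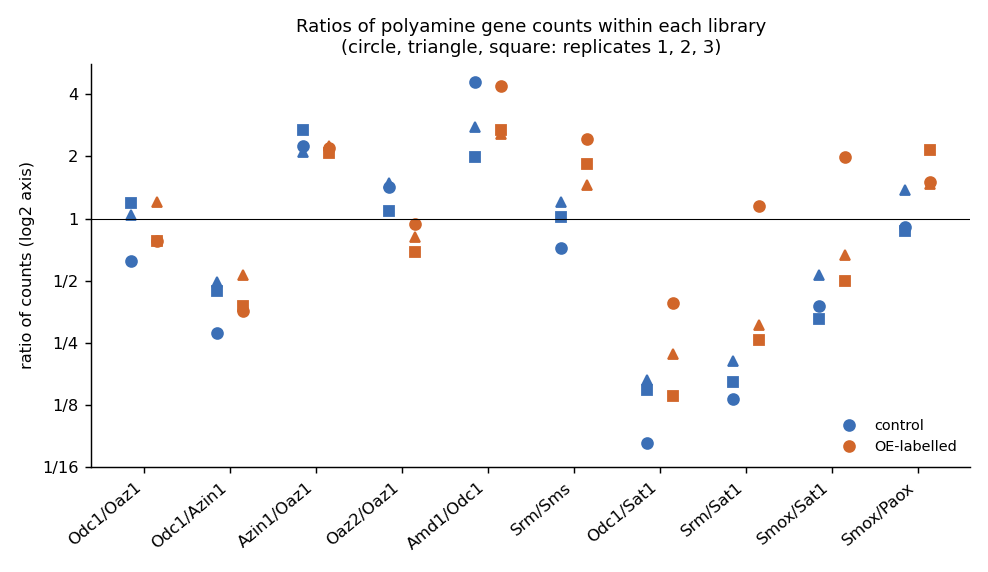
Ratio of the counts of 2 polyamine genes within each library (vertical log2 axis) for 10 pairs, control in blue and OE-labelled in orange, with replicates 1, 2 and 3 as circle, triangle and square. The groups do not overlap for Oaz2/Oaz1, Srm/Sms, Srm/Sat1 and Smox/Paox, and OE-labelled replicate 1 stands apart in the 3 ratios over Sat1.

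Several calls changed when the trend with base composition was removed. Across 10679 genes the log2 fold change rose with the GC content of the longest transcript (Spearman rho 0.37, across genes, which are not independent replicates): with genes cut into 4 equal groups by GC content, the median was -0.21 in the lowest group and 0.29 in the highest. Among the polyamine genes, Azin1 (39.3%), Amd1 (41.4%), Sms (43.5%) and Sat1 (43.8%) fell in the lowest group and Srm (59.8%) and Oaz1 (55.7%) in the highest, with Smox (54.5%) at the border of the highest. With the GC trend removed, Srm, Amd1 and Azin1 were called higher, at 0.60, 0.57 and 0.44, and Oaz2 was called lower, while Smox no longer passed. In that fit 23.0% of all genes tested were called in either direction, 12.7% higher and 10.3% lower. Across all 19 settings Srm alone of the 10 genes passed each time.

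**Figure D4:**
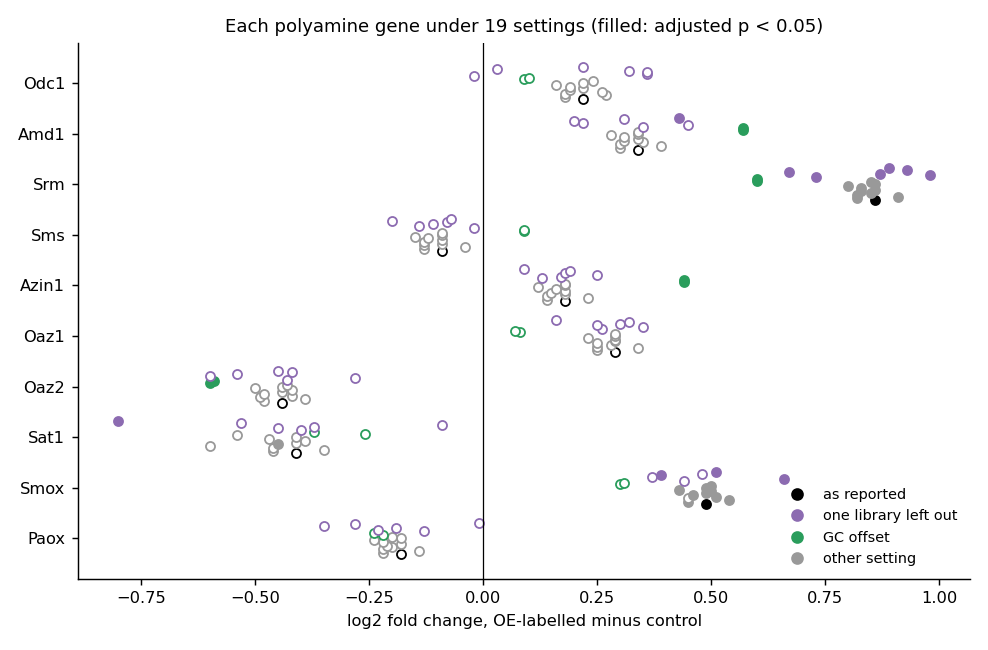
Log2 fold change of each polyamine gene (horizontal axis) under 19 settings, 1 point per setting, filled where the adjusted p was below 0.05, coloured by the kind of setting as in its key. Srm is filled throughout, Amd1, Azin1 and Oaz2 are filled with the GC trend removed, and Odc1 and Sms reach both sides of 0.

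Upstream sequence was examined for the E-box CACGTG, the site that MYC and its relatives bind, since Myc counts were lower in OE-labelled libraries. That Myc difference (edgeR adjusted p = 0.0472) was not recomputed in the alternatives, and OE-labelled replicate 1 was the lowest library, at 3.24 CPM. RefSeq promoter windows on GRCm38.p6, from 250 bases before to 50 after an annotated start, were available for 8 of the 10 genes, that is without Srm and Azin1. The 6 letters, which read the same on both strands, were found in 1 of the 8 genes, Sms, in the window of 1 of its 2 starts. They were found in 7.15% of 32817 windows of all genes. That share counts windows and not genes, so it is not a like measure to 1 of 8 genes. The match on the minus strand of chrX:157492466-157492495, with the E-box in capitals, read as follows.
Sms: cccagcggggttCACGTGcatttaaagaaa
A match is a string of letters and not a measured binding site, and sites outside these windows, such as introns, were not searched.

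The connected pathways were examined through 6 lists of 65 genes, of which 37 passed the count filter. At an edgeR adjusted p below 0.05, 8 of the 37 were higher and 4 lower, 32.4% in all, beside 29.2% of all genes tested. Their median log2 fold change was 0.07. Of the tested genes, 0 of 6 that supply arginine and ornithine, 0 of 3 of the hypusination list and 0 of 1 minor paralogue were called by edgeR, and the same 3 counts were 0 with DESeq2's test and with limma-voom. At an unadjusted p below 0.05 in edgeR they were 3, 0 and 0, beside 4407 of all 10687 genes tested. With the GC trend removed, 1 of the 6 arginine and ornithine genes was called higher, Oat, and 1 lower, Ass1, both named after their values were seen.

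S-adenosylmethionine is the source of the aminopropyl groups. Mat2a, which encodes the catalytic subunit of S-adenosylmethionine synthetase found in most tissues outside the liver, was counted at 224.9, 206.9 and 221.1 CPM in control and 373.5, 318.1 and 309.1 CPM in OE-labelled libraries. All OE-labelled values lay above the controls (log2 fold change 0.62, SE 0.11, edgeR adjusted p = 0.0015), and the call held in all 18 alternatives. Of the 12 tested genes in this list, 2 were called higher and 2 lower (all genes tested: 16.5% and 12.7%). Adi1, of the salvage of methylthioadenosine, rose by 0.64 (SE 0.16, edgeR adjusted p = 0.0103). Mtr, which encodes methionine synthase, changed by -0.85 (SE 0.23, edgeR adjusted p = 0.0154) and Ahcyl1 by -0.36 (SE 0.11, edgeR adjusted p = 0.0238). Mtap, the phosphorylase that clears the methylthioadenosine left by Srm and Sms, had 84.3, 78.3 and 81.1 CPM in control and 102.1, 87.7 and 91.3 CPM in OE-labelled libraries, without overlap, and a log2 fold change of 0.21 that did not pass (95% interval -0.05 to 0.46, edgeR adjusted p = 0.21). Leaving out control replicate 3 ended the call of Adi1 (0.56, edgeR adjusted p = 0.0611). The call of Mtr was lost without control replicate 2 (-0.76), control replicate 3 (-0.80) or OE-labelled replicate 2 (-0.82), and that of Ahcyl1 without any 1 control or OE-labelled replicate 2 (-0.40 to -0.33) and with the GC trend removed (-0.27). Mat2a and Mtap each overlap 1 gene on the opposite strand, and Mat2a has 2 near-identical copies, so both levels are uncertain.

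Hypusination uses spermidine to modify the translation factor eIF5A. Eif5a had 277.4, 238.3 and 243.3 CPM in control and 199.3, 296.9 and 242.3 CPM in OE-labelled libraries. Its log2 fold change was -0.04 (95% interval -0.34 to 0.26, edgeR adjusted p = 0.857), with the OE-labelled values on both sides of the controls. The enzymes Dhps and Dohh gave 0.04 (95% interval -0.42 to 0.50) and 0.14 (95% interval -0.35 to 0.62), with edgeR adjusted p of 0.912 and 0.682. The intervals of Dhps and Dohh include changes as large as that of Smox. All 3 signs changed in some settings, Eif5a with library totals (0.01), Dhps with DESeq2's size factors (-0.0036) and Dohh with the GC trend removed (-0.13). Eif5a has 2 near-identical genes, and Dhps and Dohh have 1 each. Dhps also overlaps 1 gene on the opposite strand and Dohh overlaps 2 on the same strand, so all 3 levels are uncertain.

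Of 9 tested transport genes, 3 were called higher and 1 lower, where 16.5% and 12.7% of all genes tested were. Slc3a2, the heavy chain of amino acid exchangers that has also been linked to polyamine export, had 582.5, 530.6 and 502.2 CPM in control and 965.0, 880.4 and 808.8 CPM in OE-labelled libraries. The groups were well apart (log2 fold change 0.72, SE 0.1, edgeR adjusted p = 0.000516), and the call held in all 18 alternatives. The end of an annotated Slc3a2 transcript shares a stretch with 515 other genes, so its level is uncertain. Atp13a2, a lysosomal polyamine exporter, rose from 13.0 ± 0.59 CPM to 21.7 ± 4.29 CPM (SD, n = 3; log2 fold change 0.74, edgeR adjusted p = 0.0232). Its relative Atp13a3 had 89.4, 96.6 and 96.3 CPM in control and 63.6, 62.9 and 87.9 CPM in OE-labelled libraries, with no overlap and a log2 fold change of -0.40 (95% interval -0.71 to -0.09, edgeR adjusted p = 0.0545). Gpc1, a heparan sulfate proteoglycan linked to polyamine uptake, rose by 0.56 (edgeR adjusted p = 0.0433), and Cav1, the caveolae protein, changed by -0.92 (edgeR adjusted p = 0.0277). Slc7a1, a carrier of arginine and ornithine, had 164.5, 172.6 and 182.4 CPM in control and 185.6, 152.2 and 183.5 CPM in OE-labelled libraries (log2 fold change 0.00, 95% interval -0.24 to 0.25, edgeR adjusted p = 0.983), and the groups overlapped. The calls of Atp13a2 and Cav1 were each lost in 7 of 18 alternatives, with DESeq2's test (0.70 and -0.96), with the GC trend removed (0.48 and -0.72), and without any 1 control or OE-labelled replicate 2. The call of Gpc1 was lost in 11, among them without any 1 library other than OE-labelled replicate 3 (0.41 to 0.67). Atp13a3 passed in 8 of 18, among them without OE-labelled replicate 1 (-0.38) or replicate 3 (-0.57), and was at -0.15 with the GC trend removed (edgeR adjusted p = 0.448). Cav1 and Gpc1 overlap genes on the opposite strand. Gpc1 also overlaps 1 gene on the same strand and has 1 near-identical gene at its end. The levels of Cav1 and Gpc1 are therefore uncertain.

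Oxidation of polyamines releases hydrogen peroxide and aldehydes, and 4 of the 6 tested genes that clear these were called, 3 higher and 1 lower, beside 16.5% and 12.7% of all genes tested. Cat, which encodes catalase, had 77.9, 83.0 and 65.4 CPM in control and 137.3, 125.8 and 131.1 CPM in OE-labelled libraries. It was higher in every OE-labelled library than in any control (log2 fold change 0.80, SE 0.12, edgeR adjusted p = 0.000675), and the call held in all 18 alternatives. Prdx1, a peroxiredoxin, rose by 0.58 (SE 0.14, edgeR adjusted p = 0.00749) and Aldh1a1 by 0.56 (SE 0.15, edgeR adjusted p = 0.0145). Aldh9a1, an aldehyde dehydrogenase that takes an aminobutyraldehyde made from putrescine, changed by -0.46 (SE 0.15, edgeR adjusted p = 0.0323). Prdx1 no longer passed without control replicate 3 (0.53) or OE-labelled replicate 2 (0.43), nor did Aldh1a1 without control replicate 1 (0.58) or 2 (0.51). Aldh9a1 lost its call without control replicate 2 (-0.40), control replicate 3 (-0.43) or OE-labelled replicate 2 (-0.47), with library totals (-0.41) or with DESeq2's test (-0.51). These genes also act outside polyamine metabolism. Prdx1 has 2 near-identical copies and Aldh1a1 overlaps genes on the opposite strand, so both levels are uncertain.

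**Figure D5:**
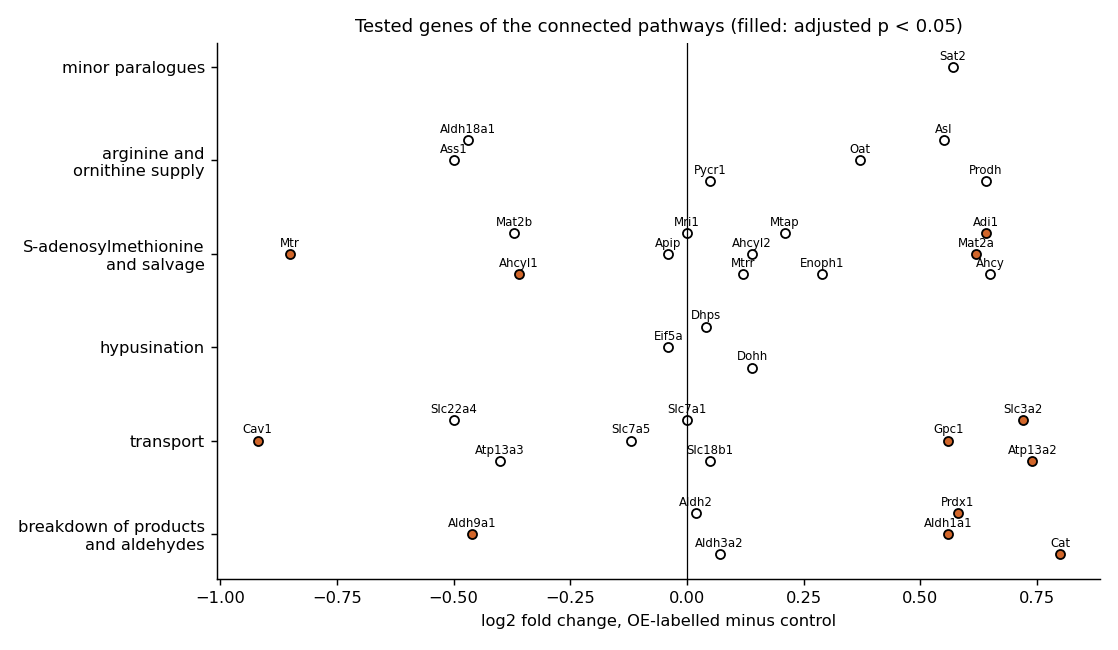
Log2 fold change (horizontal axis) of the 37 tested genes of 6 connected pathways (rows), filled where the edgeR adjusted p was below 0.05. Filled points lie on both sides of 0 in the S-adenosylmethionine, transport and breakdown rows, and the arginine and hypusination rows hold none.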

How the data were processed

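Organoid RNA was made into 6 libraries with a 3′ QuantSeq kit, per the labels' protocols. The authors deposited 1 table of estimated counts per gene, with STAR, HTSeq and the mm10/GRCm38 build named in the submitters' processing notes. Of its values, 2843 had fractions, none of them in the polyamine genes, and these were rounded.

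The 3 OE-labelled libraries were compared with the 3 controls by edgeR 4.0.16's quasi-likelihood test in R 4.3.3, after its count filter and TMM scaling, with Benjamini-Hochberg adjustment over 10687 genes. CPM values are TMM-scaled. Alternatives used DESeq2 1.42.0, limma 3.58.1 (voom), other scaling and filters, equal depth, a GC offset (loess, span 0.5), a replicate block, and each library left out. The test was run first on simulated counts with the same extra spread set for every gene in both groups. The spread in these libraries differed between the groups, so that run does not show how the test performs on them. Ratios of 2 genes within a library were compared by exact permutation. Coordinates and GC content came from GENCODE M21 (GRCm38). Near-identical genes matched the last 500 bases of a transcript at 95% identity or more over at least 100 bases.

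The polyamine genes and the lists were chosen with earlier results of these data known. All polyamine genes are named. Of each pathway list, up to 5 called genes with the smallest p are named, with Eif5a, Dhps, Dohh, Mat2a, Mtap, Slc3a2, Slc7a1 and Atp13a3 whatever their result. Exact and adjusted p-values, 95% intervals and the floor of 3 counts cover these libraries only, and reads without molecular identifiers are not independent molecules.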

Additional observations from a re-analysis of the deposited data

How the results depend on the processing

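Each polyamine gene was recomputed in 18 alternatives, and of the 180 values 162 kept their direction and their side of the threshold. Srm passed in all 18 (adjusted p from 0.000132 to 0.0299). With DESeq2's test 1 polyamine gene was called higher, Srm, as at an adjusted p below 0.01, and Smox was at 0.45. With the GC trend removed, without and with the replicate block, 1 was called lower, Oaz2 (-0.60 and -0.59), while Amd1 was at 0.57 in both, Azin1 at 0.44 in both, Smox at 0.30 and 0.31, and Sms at 0.09 in both, against -0.09. With no count filter 1 was called lower, Sat1 (-0.45).

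Leaving out 1 library gave 1 to 3 polyamine genes called higher and 0 to 1 called lower. The log2 fold changes then ranged from -0.02 to 0.36 for Odc1, from 0.20 to 0.45 for Amd1, from -0.80 to -0.09 for Sat1, from 0.37 to 0.66 for Smox, from 0.67 to 0.98 for Srm, from -0.20 to -0.02 for Sms, from 0.09 to 0.25 for Azin1, from 0.16 to 0.35 for Oaz1, from -0.60 to -0.28 for Oaz2 and from -0.35 to -0.01 for Paox. The log2 difference of the ratios ranged from -0.30 to 0.16 for Odc1/Oaz1, from -0.17 to 0.24 for Odc1/Azin1 and from -0.19 to 0.41 for Amd1/Odc1. Over all genes, 1033 to 1959 were called higher and 715 to 1731 lower. DESeq2 called 1059 genes higher and 2096 in all, and at an adjusted p below 0.01 there were 944 higher and 634 lower. Of all calls, 56.6% were higher with TMM, 49.9% with DESeq2's size factors, 63.8% with library totals and 47.9% when mitochondrial genes and CT010467.1 were left out. The cause of these changes was not tested.

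Of 324 values of the named pathway genes, 248 kept direction and call, and 24 changed sign, all in 4 genes near 0. Eif5a was 0.01 with library totals and from -0.23 to 0.04 with a library left out. Dhps was -0.0036 with DESeq2's size factors, -0.0026 with its test, and -0.02 without mitochondrial genes and CT010467.1. Its value was -0.17 with the GC trend removed, also with the block, and from -0.10 to 0.16 with a library left out. Dohh was -0.13 with the GC trend removed, -0.12 with the block in addition, and from -0.07 to 0.33 with a library left out. Slc7a1 was -0.04 with DESeq2's size factors and with its test, -0.0011 with limma-voom, and -0.03 with no count filter. Its value was -0.06 without mitochondrial genes and CT010467.1, -0.08 with the GC trend removed, and -0.09 with the block in addition. With a library left out it ranged from -0.10 to 0.06.

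When the replicate block was added to the fit, 3112 genes were called, 2958 of them the same as without it, Srm was at 0.85 and Smox at 0.50, Gpc1 was lost (0.55, edgeR adjusted p = 0.0516) and Atp13a3 gained (-0.41, edgeR adjusted p = 0.0401), and no other call among the named genes changed. Same-numbered libraries correlated at 0.10, 0.02 and 0.07 in their deviations, so the numbers were not taken to pair the libraries. Ratios were computed with each library left out, unrounded and with a pseudocount of 1. Odc1 had 30 to 78 counts per library.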

Other observations

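Sat1 was not the only gene of these lists that stood low in OE-labelled replicate 1, and the following were named after their values were seen. Aldh18a1, which encodes the enzyme that starts proline and ornithine synthesis from glutamate, had 43.3, 45.5 and 43.8 CPM in control and 13.0, 38.9 and 44.0 CPM in OE-labelled libraries, so that replicate 1 was at 0.313 of the mean of the other two, as Sat1 was. Slc7a5, the light chain that pairs with Slc3a2, had 47.5, 44.6 and 41.9 CPM in control and 23.5, 52.3 and 47.8 CPM in OE-labelled libraries, at 0.47 of that mean. Myc was at 0.198 of it. Of 8851 genes with a mean of at least 10 CPM, 395 (4.46%) were below 0.5 of it. Neither Aldh18a1 (log2 fold change -0.47, edgeR adjusted p = 0.263) nor Slc7a5 (-0.12, edgeR adjusted p = 0.743) was called.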
